A study of Homo sapiens with 45 samples.

Results

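SH-SY5Y is an established neuroblastoma line of the adrenergic (ADRN) type, and the data compared it after 24 h in palbociclib (PB), a small molecule that blocks the kinases CDK4 and CDK6, with control cells of the same line. The members were the libraries that the labels name as SH-SY5Y control or SH-SY5Y with 24 h of PB, 5 of each, so 10 of the 45 RNA-seq libraries of the series. All genes with enough counts entered, 14547 of the 29159 in the table. PB was used at 1 μM from a stock in DMSO, cells of both groups were grown in DMEM/F12 with 10% FBS, and the controls were collected at the time of the 24 h samples. The sources used here do not state for these libraries whether the controls received the solvent. The line is described as carrying a mutant *ALK* and gained segments of chromosomes, and both groups share these. It lacks the *MYCN* amplification of the other lines of the series, SK-N-BE(2)C and IMR-32. Replicates of a group came from separate experiments at differing passage, so their spread is that of 1 cell line in culture.

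D-type cyclins activate CDK4 and CDK6, which phosphorylate the retinoblastoma protein RB and its relatives p107 and p130. Unphosphorylated RB family proteins hold E2F transcription factors inactive. With E2F and the MuvB core, p107 or p130 form the DREAM complex, which keeps genes of mitosis silent through a promoter element called CHR. Inhibition of CDK4 and CDK6 is known to stop cells in G1, before DNA replication begins, and neuroblasts of the sympathetic lineage leave the cell cycle as they become neurons.

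The 10 libraries held 16853018 to 23692289 counted reads, so 1 CPM (a gene's count scaled to its library's total) stood for 16.9 to 23.7 reads. Over all 15 SH-SY5Y libraries, those of 5 d in PB included, replicates varied by 11.2% (edgeR's biological coefficient of variation). In a principal component analysis of the same libraries the controls lay between −54.5 and −41.4 on the first component. The 24 h libraries lay between 5.00 and 14.7 on it. Of the adrenergic markers, *PHOX2A*, *HAND2*, *GATA3*, *ISL1*, *DBH*, *CHGA* and *CHGB* had medians of at least 183 CPM in both groups, while *TH*, the first enzyme of catecholamine synthesis, lay between 0.106 and 0.873 CPM. *MYCN* ranged from 3.04 to 8.16 CPM. Endothelial markers summed to at most 0.143 CPM in any library and immune markers to at most 6.64 CPM, whereas the mesenchymal markers *VIM*, *TWIST1*, *COL3A1* and *FN1* were at 72.9 CPM or more in every library. Of the other mesenchymal markers *COL1A1* lay between 22.5 and 53 CPM and *SNAI2*, *CD44* and *COL1A2* between 0.319 and 10.8 CPM. Bulk RNA cannot tell fewer cells in a cycle phase from less RNA per cell, which holds for every result below. Positions are on GRCh37, the build of hg19. The sources do not say whether counting used the strand, so the values of genes that share over 500 exonic bases with a gene on the opposite strand are uncertain: among those named these are *CDK4*, *CCNE2*, *PLK1*, *TMPO-AS1*, *CDCA3*, *CDKN2C*, *CDKN2A*, *LIN37*, *MXD3*, *HNRNPA2B1*, *VLDLR*, *MTHFD2*, *SLC7A11*, *FDPS*, *WIPI1*, *IRF9*, *NGFR*, *NRP1*, *BBS1* and *YAP1*.

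After 24 h in PB the falls were deeper than the rises. Calls needed a log2 fold change beyond 0.5 and, in edgeR's quasi-likelihood test, an adjusted p (Benjamini-Hochberg) under 0.05. By that rule 1530 genes were higher, 10.5% of those tested, and 1599 were lower, 11.0%. The median log2 fold change was 0.72 among genes called higher and −0.89 among genes called lower. Beyond a log2 fold change of 2 there were 9 higher and 227 lower genes, and beyond 3 there were 0 higher and 72 lower. The median over all genes tested was 0.04. Of the genes called, 1228 higher and 1392 lower ones had no overlap between the control and the treated libraries, against 38.5% of all genes tested. Genes called higher had a median of 9.04 CPM in controls and those called lower 29.6 CPM, beside 33.1 CPM for genes not called.

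**Figure D1:**
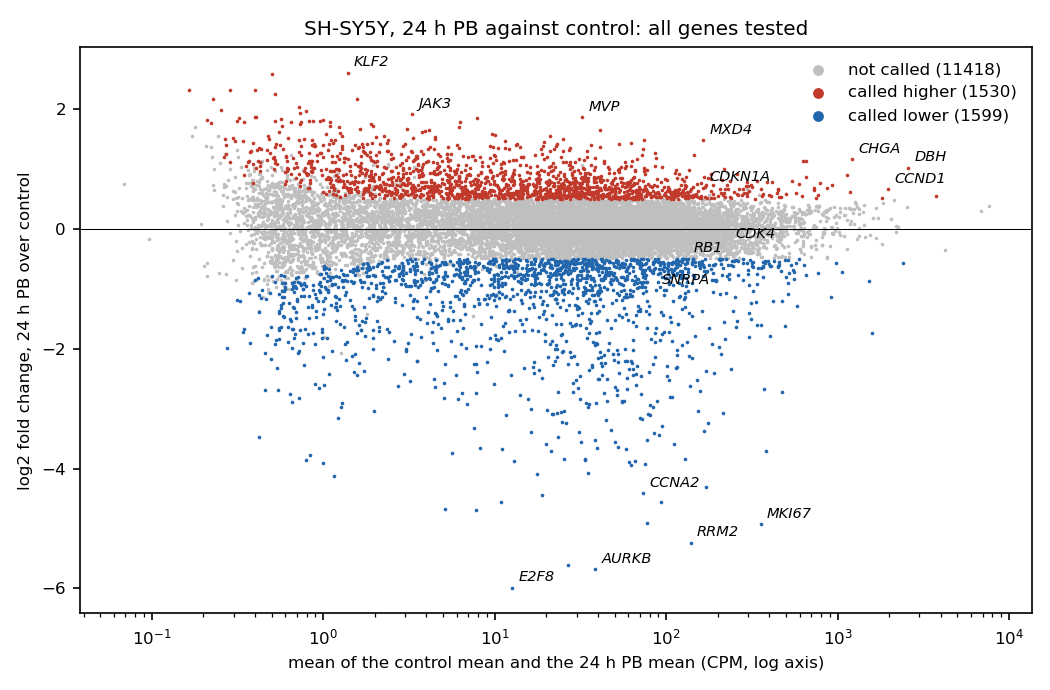
Every gene tested is a point, with its mean level in CPM on a log axis against its log2 fold change at 24 h of PB over control, red where called higher, blue where called lower and grey where not called. The points reach down to −5.99 (*E2F8*) and up to 2.6 (*KLF2*).

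The transcripts of the drug's own targets moved little. *CDK4* (chr12:58141510-58149796) was at 247, 239.9, 262, 238 and 274 CPM in control replicates 1 to 5 and at 207, 192, 225, 222 and 215 CPM at 24 h. All treated values lay below the controls, but the log2 fold change of −0.26 ± 0.09 (± standard error, adjusted p 0.0181) did not reach the fold limit. *CDK6* (chr7:92234235-92465887) was at 479, 559, 424, 523 and 485 CPM in controls and 452, 645, 481, 515 and 482 CPM at 24 h, with overlapping groups and a log2 fold change of 0.05 ± 0.10 (adjusted p 0.707). *CCND1* (chr11:69455924-69469242), which encodes the cyclin D1 that pairs with both kinases, went from 1624, 1410, 1471, 1525 and 1563 CPM to 2727, 2387, 2486, 2254 and 2302 CPM. Every treated library exceeded every control, and the rise was 0.67 ± 0.08 (adjusted p 1.23e-06). *CCND3*, another D-type cyclin, fell by 0.71.

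Of the RB family genes 1 was called. *RBL1*, which encodes p107, went from 45.7, 47.4, 38.3, 44 and 51.0 CPM to 10.5, 11.8, 9.02, 11.9 and 8.69 CPM, a change of −2.13 ± 0.16 with no overlap. *RB1* (chr13:48877880-49173572) was at 161, 155, 136, 153 and 174 CPM and then 114, 118, 107, 109.9 and 108 CPM, again with no overlap, and its log2 fold change of −0.50 ± 0.07 (adjusted p 9.26e-06) lay just short of the fold limit. It passed that limit with RLE factors, with DESeq2, with no filter on low counts and with only the 10 libraries compared (−0.51 to −0.52), and when control replicate 2 or 3 or treated replicate 1, 2 or 3 was left out (−0.50 to −0.54). *RBL2*, which encodes p130, was at 0.11 and not called. Among CDK inhibitor genes *CDKN2C* (p18) fell from 175, 152, 188, 165 and 168 CPM to 44, 42.2, 49.8, 49.5 and 47.2 CPM, a change of −1.88 ± 0.10. *CDKN1B* (p27) fell by 0.72, and *CDKN2A* (p16 and p14ARF), with a highest control value of 1.93 CPM, fell by 1.42. *CDKN1A* (p21, chr6:36644237-36655114) went the other way, from 154, 149.5, 145, 90.4 and 90.6 CPM to 255, 214, 248, 141 and 162 CPM. Replicates 4 and 5 were the lowest in both groups, and the groups overlapped although each treated library exceeded the control of its own number. The rise was 0.69 ± 0.22 (adjusted p 0.0181). Without treated replicate 3 it was 0.59 with an adjusted p of 0.0545, with no filter on low counts the adjusted p was 0.0507, and over all alternatives the adjusted p ran from 0.0088 to 0.0545. Over the whole list of this axis, 2 of 13 genes were called higher (1 without treated replicate 3) and 5 lower, with a median of −0.38. That is 15.4% higher and 38.5% lower, where 10.5% and 11.0% of all genes were.

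The E2F family split. The genes for the activators *E2F1* and *E2F2*, for the repressors *E2F7* and *E2F8* that close the S phase programme, and for the partner *TFDP1* fell, while 5 of the 10 E2F and DP genes were not called (50% lower, beside 11.0% of all genes). *E2F8* (chr11:19245610-19263167), the deepest fall in the table, went from 27.6, 22.3, 21.1, 24.3 and 29.6 CPM to 0.237, 0.349, 0.356, 0.683 and 0.262 CPM, a change of −5.99 ± 0.48 (adjusted p 1.10e-07). The 5 treated libraries held 36 *E2F8* reads in all and the 5 controls 2550. *E2F1* went from 118, 94.2, 103, 122 and 100.0 CPM to 28.2, 16.5, 15, 21.5 and 18.3 CPM, a change of −2.45 ± 0.24. *E2F2* changed by −3.56, *E2F7* by −3.05 and *TFDP1* by −1.14. *E2F3*, another activator, was at −0.23, and *E2F4*, the E2F of the DREAM complex, at 0.06. The family thus ran from −5.99 to 0.34 with a median of −0.76.

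All 16 of the S and M phase cyclins, their kinases and regulators were called lower, beside 11.0% of all genes, with a median of −2.39. *CCNA2*, the S and G2 cyclin A2, went from 152, 127, 138, 132 and 154 CPM to 6.65, 5.77, 4.03, 8.97 and 7.49 CPM, a change of −4.41 ± 0.45. *CCNE2*, a cyclin of the G1/S boundary, changed by −4.57, whereas *SKP2*, at −0.74, was the smallest fall of the list. Of the transcription factors that follow E2F in the cycle, *MYB* went from 9.46, 9.36, 10.0, 10.4 and 9.94 CPM to 0.237, 0.291, 0.475, 0.410 and 0.471 CPM, a change of −4.68 ± 0.38, and *MYBL2* (B-MYB), which joins MuvB to switch on G2 genes, changed by −4.32 ± 0.40. In this list of 9 genes 8 were lower (5 without control replicate 5) and 1, the MuvB subunit gene *LIN37*, higher at 0.52, which is 88.9% lower and 11.1% higher, the last near the 10.5% of all genes. *LIN37* was no longer called without control replicate 4 or 5 or treated replicate 1 or 3 (0.45 to 0.49), nor with RLE factors or only the 10 libraries compared (both 0.50, just short of the limit).

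**Figure D2:**
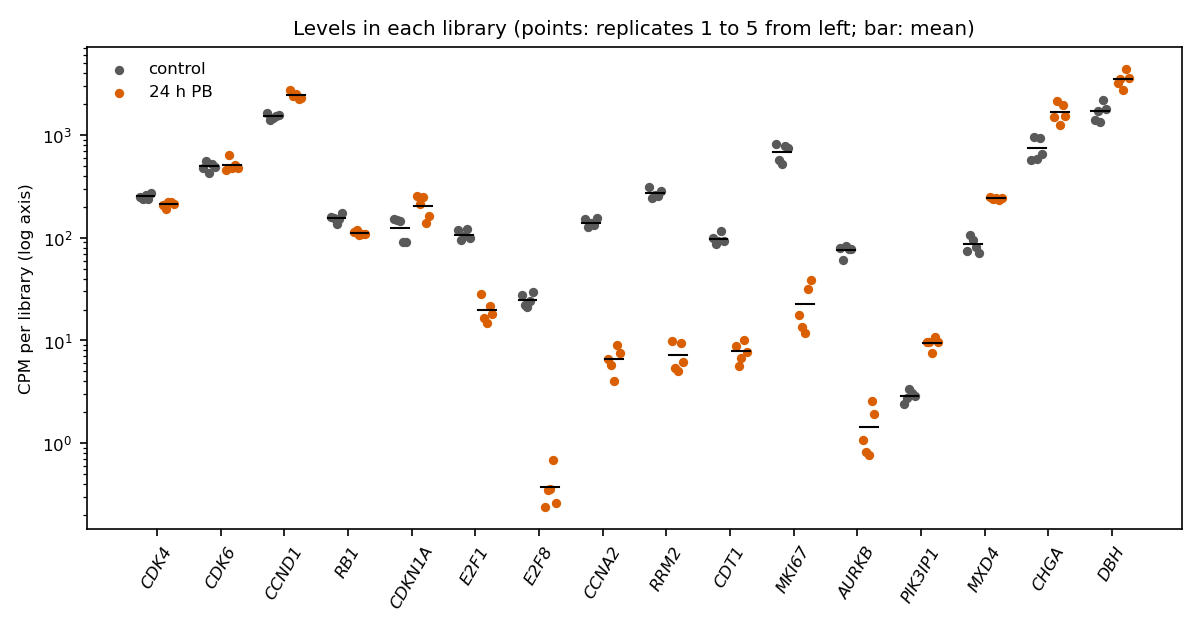
Each point is 1 library's level in CPM on a log axis, grey for control and orange for 24 h of PB, with replicates 1 to 5 from left to right and a bar at the mean. *CDK6* overlaps its controls, *RB1* lies below its controls by far less than the genes of the cycle, *E2F8*, *CCNA2*, *RRM2*, *CDT1*, *MKI67* and *AURKB* drop by over a factor of 10, and *PIK3IP1*, *MXD4*, *CHGA* and *DBH* rise.

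DNA replication genes fell nearly as a whole, 45 of 50 (90%, beside 11.0% of all genes) with a median of −1.75 and 0 higher. *CDT1*, which loads the MCM helicase at origins, went from 99.7, 86.5, 93.2, 115 and 93.3 CPM to 8.84, 5.59, 6.82, 10.2 and 7.80 CPM, a change of −3.64 ± 0.28 (adjusted p 1.22e-07). *GINS2*, a subunit of the active helicase, changed by −3.56. The 5 genes not called were *POLD2* and 4 genes of the origin recognition complex, *ORC2* to *ORC5*, between −0.40 and 0.06. Among nucleotide supply genes 14 of 23 were lower (60.9%) and 0 higher. *RRM2* (chr2:10260825-10351851), the S phase subunit of ribonucleotide reductase, went from 310.1, 243, 264, 253 and 283 CPM to 9.79, 5.42, 5.10, 9.38 and 6.18 CPM, a change of −5.24 ± 0.52 (adjusted p 1.70e-06), and *TK1*, thymidine kinase, by −3.92. The treated and control libraries did not overlap for *CDT1*, *GINS2*, *RRM2* and *TK1*, nor for 47 of the 50 replication and 18 of the 23 nucleotide supply genes, beside 38.5% of all genes.

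All 60 genes of the mitosis and kinetochore list were lower (beside 11.0% of all genes) without overlap of libraries (beside 38.5%), from −0.77 to −5.68 with a median of −2.78. *AURKB* (chr17:8108051-8113918), the kinase of the chromosomal passenger complex, went from 79.8, 60.6, 82.9, 77.6 and 77.1 CPM to 1.07, 0.815, 0.771, 2.55 and 1.94 CPM, a change of −5.68 ± 0.57 (adjusted p 2.16e-06). *MKI67* (chr10:129894923-129924687), which encodes the proliferation marker Ki-67, went from 820.4, 574, 525, 789.9 and 746 CPM to 17.7, 13.6, 11.8, 31.7 and 38.4 CPM, a change of −4.93 ± 0.55 (adjusted p 5.73e-06). Among treated libraries both were highest in replicates 4 and 5. *KIF20A*, a kinesin of cytokinesis, changed by −4.90, *PLK1*, a master mitotic kinase, by −4.56 and *CDCA3*, a trigger of mitotic entry, by −4.44. Other falls of this depth were *FAM111B* (−5.61), which encodes a protease, and the antisense transcript *TMPO-AS1* (−4.69).

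The promoters of these groups held different letters. The windows run from 250 bases before to 50 after the start site (RefSeq, GRCh38.p14), taking the first start listed for each gene, and a window was found by symbol for 10974 of the 14547 genes tested. The E2F motif was searched as TTTCGCGC, TTTGGCGC, TTTCCCGC or TTTGCCGC and CHR as TTTGAA, on both strands. A match is a description, not a site of binding. *CDT1* and *MKI67* are shown as examples of genes with deep falls and an E2F and a CHR match, respectively. Not every gene named here was considered for this choice, *CCNE2* among those left out, so a gene with a deeper fall may also hold a match. The *CDT1* window (chr16:88803539-88803838, plus strand) holds 1 E2F match, in capitals, 35 bases before the start, and no CHR match. The *MKI67* window (chr10:128126374-128126673, minus strand) holds 2 CHR matches, in capitals, 47 and 29 bases before the start, and no E2F match.
CDT1: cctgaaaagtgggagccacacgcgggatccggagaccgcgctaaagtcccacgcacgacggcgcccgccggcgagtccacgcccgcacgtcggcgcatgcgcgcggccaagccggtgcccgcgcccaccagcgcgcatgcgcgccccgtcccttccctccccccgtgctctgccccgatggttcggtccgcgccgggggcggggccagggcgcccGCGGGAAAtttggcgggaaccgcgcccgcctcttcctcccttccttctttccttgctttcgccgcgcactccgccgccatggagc
MKI67: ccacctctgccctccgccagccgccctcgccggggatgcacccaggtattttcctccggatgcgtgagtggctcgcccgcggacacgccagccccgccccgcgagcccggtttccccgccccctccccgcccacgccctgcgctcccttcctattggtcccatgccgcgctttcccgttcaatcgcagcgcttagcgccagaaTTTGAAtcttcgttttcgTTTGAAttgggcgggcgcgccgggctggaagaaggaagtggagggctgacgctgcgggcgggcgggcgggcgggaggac

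Of 42 replication genes with a window, 20 (47.6%) held the E2F motif and 0 held CHR. Of 51 mitosis genes 4 (7.84%) held the E2F motif and 37 (72.5%) held CHR. Among all genes called lower the E2F motif was found in 146 of 1227 windows (11.9%), against 21 of 1101 (1.91%) for genes called higher and 414 of 8646 (4.79%) for genes tested but not called. CHR was found in 17.5% of genes called lower, 5.90% of genes called higher and 8.48% of genes not called, beside 15.4% over all 27305 genes in the table. The 171 genes that fell beyond −2 and have a window held CHR in 35.7% and the E2F motif in 18.1%. CCAAT, letters known from promoters of cell cycle genes, was in 44.6%, 34.1% and 35.7% of genes called lower, higher and not called. The FOXO motif GTAAACA (2.28%, 1.82% and 2.21%), the E-box CACGTG (9.45%, 6.99% and 10.3%) and the CRE TGACGTCA (3.42%, 3.54% and 3.32%) are given in the same order.

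**Figure D3:**
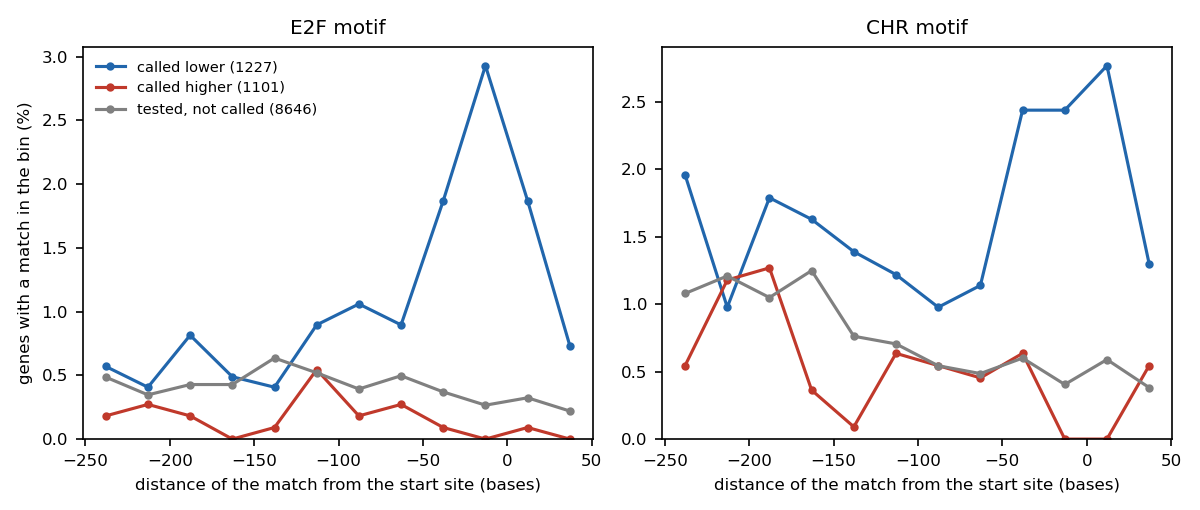
The share of genes with a match in bins of 25 bases is drawn against the distance from the start site, for genes called lower (blue), called higher (red) and tested but not called (grey). For genes called lower the E2F share peaks at 2.93% in the bin just before the start and the CHR share at 2.77% in the bin just after it, where 0.266% and 0.59% of genes not called have a match.

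Falls extended to DNA repair, chromatin and splicing genes. In DNA repair 31 of 41 genes were lower (75.6%, beside 11.0% of all genes), led by *NEIL3*, a glycosylase, at −3.67. Of 31 chromatin genes 24 were lower (77.4%), among them *HMGB2* (−2.68) and *CHAF1B* (−2.57), a subunit of the chaperone that places histones behind the fork. *HMGB2* went from 629, 570.4, 675, 653 and 695 CPM to 78.4, 87.6, 91.8, 129.9 and 119 CPM. Splicing factors fell by less and more evenly: 22 of 43 were lower (51.2%) and 0 higher, with a median of −0.57 and the deepest value at −1.02. That was *SNRPA*, the U1 snRNP protein A, which went from 116, 115, 117, 120.4 and 115 CPM to 50.6, 55.1, 59.1, 64.5 and 60.6 CPM. *HNRNPA2B1*, an abundant RNA-binding protein, went from 2023, 1863, 2087, 1970 and 1861 CPM to 1066, 979.6, 1105, 1138 and 1126 CPM, a change of −0.87 ± 0.09. In both, all treated libraries lay below all controls. Ribosome biogenesis genes moved little, with a median of −0.07 over 32 genes and 1 called lower (3.12%, below the share of all genes), the snoRNP protein gene *NOP56* (−0.61). A second member was also called when control replicate 2 or 3 or treated replicate 4 or 5 was left out.

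**Figure D4:**
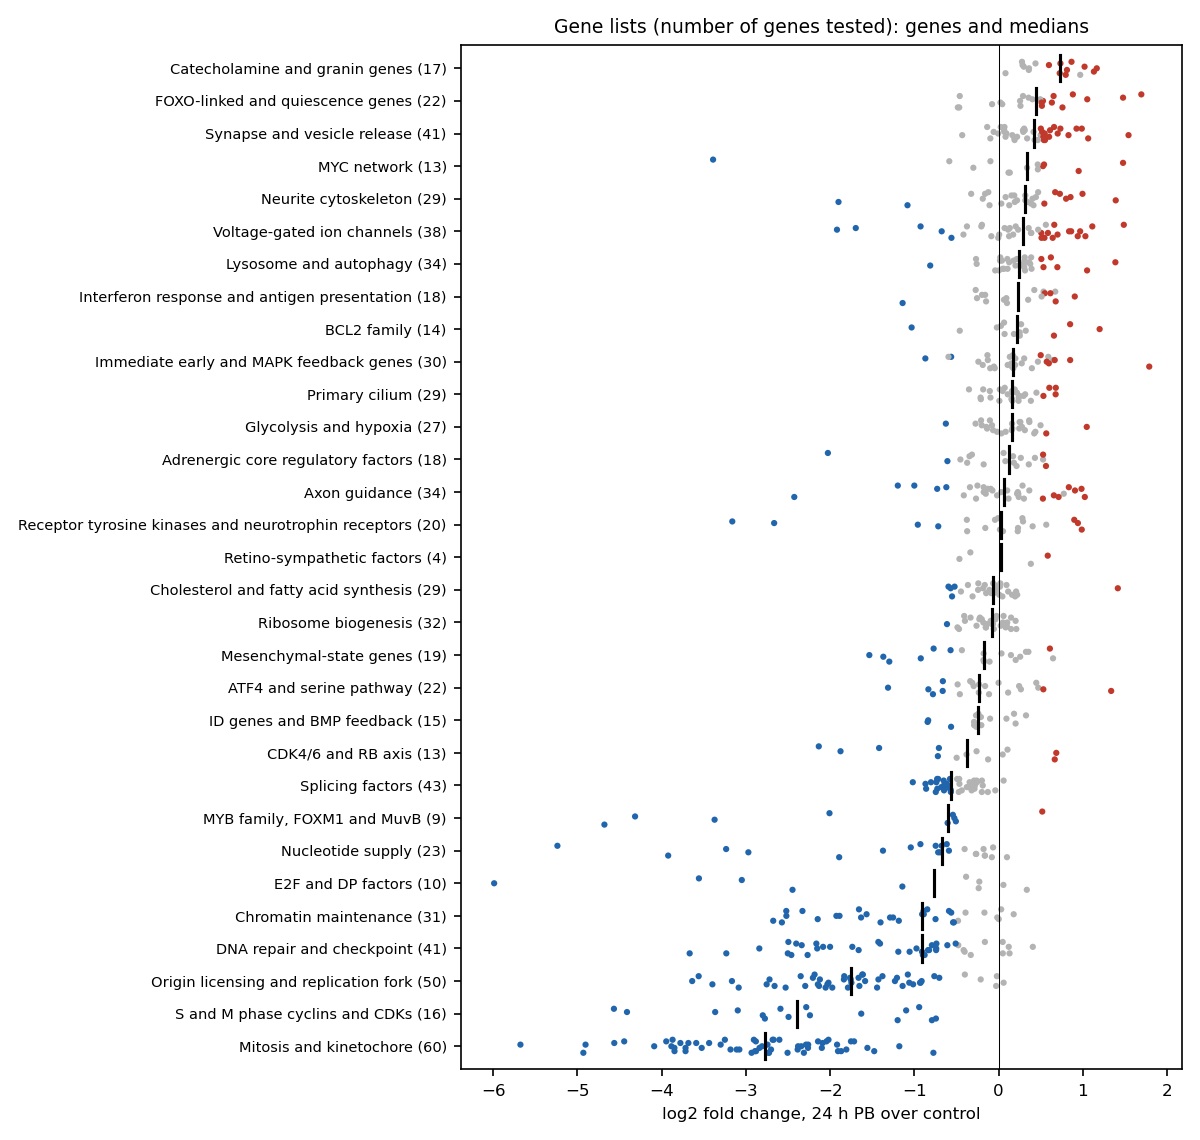
Each row is 1 of 31 gene lists with the number of its genes tested, each point a gene's log2 fold change (red called higher, blue called lower, grey not called) and each black bar the list median. The cell cycle lists lie at the bottom, from a median of −2.78 for mitosis, and the catecholamine and granin genes at the top with 0.73.

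The 12 largest rises were taken among genes with at least 1 CPM on average over the 10 libraries and no overlap of groups, and all but *MVP* started below the median control level of the genes called higher. *KLF2* (chr19:16435637-16439496), a transcription factor linked to quiescence in lymphocytes and endothelium, went from 0.464, 0.421, 0.469, 0.191 and 0.370 CPM to 3.09, 2.39, 2.25, 1.46 and 2.78 CPM, a change of 2.6 ± 0.29 (adjusted p 8.87e-07). Replicate 4 was the lowest in both groups. *JAK3* (chr19:17935589-17958880), a cytokine receptor kinase, went from 1.31, 1.74, 1.51, 1.24 and 1.11 CPM to 5.70, 5.82, 4.39, 5.65 and 4.61 CPM, a change of 1.91 ± 0.17. *MVP*, the major vault protein and the most abundant of the 12, went from 14.6, 18.6, 16.6, 10.1 and 9.62 CPM to 68.1, 49.4, 60.2, 40.8 and 36.5 CPM with a change of 1.86 ± 0.20. *NR4A3* (chr9:102584137-102629173), an orphan nuclear receptor induced by growth signals, went from 3.67, 2.95, 2.14, 2.91 and 2.33 CPM to 11.3, 8.73, 7.30, 10.9 and 10.7 CPM, a change of 1.79 ± 0.20. The others were *ARMH1* (2.17), the pseudogene *FER1L4* (1.85), *DENND1C* (1.79), *LOC100129175* (1.76), *EXTL1* (1.72), the acetylcholine receptor subunit gene *CHRND* (1.71), *PIK3IP1* (1.70) and *OTOF* (1.69), which encodes a sensor of vesicle release.

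Genes linked to quiescence rose in part. Of 22 FOXO-linked and quiescence genes 10 were higher, against 10.5% of all genes, and 0 lower (1 without control replicate 4 or treated replicate 1 or 2, and 2 without control replicate 5 or treated replicate 3). *PIK3IP1* (chr22:31677580-31688520), an inhibitor of PI3 kinase, went from 2.41, 2.74, 3.39, 3.10 and 2.86 CPM to 9.61, 9.61, 7.53, 10.7 and 9.69 CPM with a change of 1.70 ± 0.16. *MXD4*, a MAX partner that opposes MYC, went from 75.1, 107, 95.6, 82.0 and 71.7 CPM to 247, 240.1, 245, 233 and 246 CPM with a change of 1.48 ± 0.09. In both, every treated library was above every control. Within the MYC network *MXD1* (0.95) and, close to the limit, *MXI1* (0.53, 0.48 without control replicate 1 and 0.49 without treated replicate 2) and *MYCL* (0.54, 0.49 without control replicate 5 or treated replicate 4) were higher as well. *MXD3*, the MXD gene known to be expressed in cycling cells, fell from 32.3, 24.2, 32.3, 27.7 and 31.6 CPM to 3.62, 2.39, 2.97, 2.10 and 3.25 CPM (−3.39 ± 0.27). *MYC* itself was at 80.5, 86.2, 84.3, 87.8 and 79.6 CPM in controls and 72.8, 92.6, 81.1, 105 and 105 CPM at 24 h, with overlapping groups and a log2 fold change of 0.12 ± 0.24 (adjusted p 0.715). *MYCN* (chr2:16080672-16087129) was at 4.98, 6.57, 6.05, 8.16 and 5.98 CPM and then 4.04, 5.59, 4.57, 4.14 and 3.04 CPM, −0.58 ± 0.26 with an adjusted p of 0.0691. The MYC network thus counted 4 higher (30.8%) and 1 lower (7.69%) of 13, and *MYCN* became a second lower gene in 4 alternatives. With the replicate number as a block its adjusted p was 0.0421, without treated replicate 2 it was 0.0438, with DESeq2 0.0445 and with only the 10 libraries compared 0.00573, and over all alternatives it ran from 0.00573 to 0.166.

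*TP53INP1*, a stress protein of autophagy, went from 39.8, 54.4, 46.1, 34.9 and 38.2 CPM to 97.6, 117, 104, 96.1 and 91.6 CPM (1.24 ± 0.11), and *BTG2*, an antiproliferative factor, rose by 0.85. *BBC3*, which encodes the death effector PUMA, rose by 0.85. *POLH*, a DNA polymerase, fell by 0.89. In the BCL2 family *BOK* (1.20), *BBC3* and *BCL2* (0.66) were higher and *PMAIP1* (NOXA, −1.03) lower of 14 genes (21.4% and 7.14%, beside 10.5% and 11.0% of all genes), with a second lower gene without treated replicate 2. *BCL2* protects from cell death while the others named promote it.

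Metabolic lists mixed few changes in both directions, beside 10.5% of all genes called higher and 11.0% lower. The serine and one-carbon enzymes *PHGDH* (−1.31 ± 0.14), *MTHFD2* (−0.78), *PSAT1* (−0.66) and *SHMT2* (−0.66) fell. *PHGDH*, the first enzyme of serine synthesis, went from 182, 159, 199, 188 and 189 CPM to 68.8, 61.3, 73.3, 84.1 and 83.7 CPM. *SLC7A11*, the cystine transporter, fell by 0.83 (adjusted p 0.0408, and 0.0626 to 0.098 without control replicate 1, 2, 4 or 5 or treated replicate 1, 3 or 4, within a range of 0.00153 to 0.098 over all alternatives). *DDIT4*, an inhibitor of mTORC1, rose from 24.1, 44.1, 47.1, 47.9 and 43.0 CPM to 81.8, 98.8, 103, 126 and 115 CPM (1.34 ± 0.17). *VLDLR* was called at 0.53 with an adjusted p of 0.0486, and in none of the fits that left out 1 of the 10 libraries (0.0512 to 0.104, within 0.000637 to 0.125 over all alternatives). The list counted 2 higher and 5 lower of 22, and 1 higher in each fit that left out a library other than control replicate 1.

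Of 29 genes of cholesterol and fatty acid synthesis 1 was higher, the sterol reductase gene *TM7SF2*, from 26.4, 34.0, 29.4, 28.8 and 24.6 CPM to 88.8, 82.9, 74.8, 71.5 and 67.0 CPM (1.42 ± 0.08), and 4 lower, among them *FDPS* (−0.59), *INSIG1* (−0.57) and *EBP* (−0.52). Without control replicate 4 *EBP* (−0.48) was no longer called, and 2 genes of the list were lower. *EBP* (−0.46) was also lost without treated replicate 2 and *INSIG1* without control replicate 5 (−0.50, just short of the limit) or treated replicate 1 (−0.46). Of 27 glycolysis and hypoxia genes *ALDOC* (1.05) and *SLC16A3* (0.57) were higher and *EGLN3* (−0.63), an oxygen sensor, lower. *SLC16A3*, a lactate transporter, lost its call without control replicate 5 (0.46) or treated replicate 2 (0.52) or 3 (0.53), while 4 genes were higher without control replicate 4. In the lysosome and autophagy list 6 of 34 were higher (17.6%) and 1 lower (2.94%), while the cholesterol list had 3.45% higher and 13.8% lower and the glycolysis list 7.41% and 3.7%, beside 10.5% and 11.0% of all genes. *WIPI1*, an early autophagy protein, rose by 1.39, *GABARAPL1*, a phagophore protein, rose by 1.05, and *GUSB*, a lysosomal glucuronidase, fell by 0.81.

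Genes of the noradrenergic phenotype rose the most as a list. Of 17 catecholamine and granin genes 9 were higher (52.9%, beside 10.5% of all genes) and 0 lower, and the median was 0.73. *CHGA* (chr14:93389495-93401630), which encodes chromogranin A of dense-core vesicles, went from 569.6, 961, 585, 934 and 653 CPM to 1482, 2141, 1252, 1957 and 1541 CPM, a change of 1.17 ± 0.19 (adjusted p 8.40e-05). *DBH*, which makes noradrenaline from dopamine, went from 1410, 1720, 1353, 2212 and 1806 CPM to 3190, 3522, 2712, 4397 and 3570 CPM, a change of 1.02 ± 0.17. Neither gene had overlapping groups, and replicates 2 and 4 were the highest in both groups for *CHGA*. *TH* was at 0.97 and not called (adjusted p 0.0703), at under 1 CPM in every library.

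The transcription factors that hold the adrenergic identity changed at about the rate of all genes. Of 18 adrenergic core factors 2 were higher, *PHOX2A* (0.56) and *KLF7* (0.53, 0.49 without control replicate 3 and 0.48 without treated replicate 2), and 2 lower, *SOX11* (−0.61) and *LMO3* (−2.03), which is 11.1% each way beside 10.5% and 11.0% of all genes. *PHOX2A*, a noradrenergic master regulator, went from 565, 646, 589, 733 and 573 CPM to 904, 946, 831, 970.4 and 976 CPM. *LMO3*, a cofactor, went from 6.80, 5.58, 7.61, 7.92 and 9.15 CPM to 1.78, 1.28, 1.90, 2.10 and 2.04 CPM, with no overlap. *GATA3* (0.06), *HAND2* (0.08) and *ISL1* (0.17) were not called. Of the 4 retino-sympathetic factors *SOX4* was higher (0.58), and 1 was called lower when treated replicate 2 was left out. In the list of mesenchymal-state genes 1 of 19 was higher, *S100A6* (0.61), and 6 lower (5.26% and 31.6%). *SNAI2*, a factor of the mesenchymal state, went from 7.39, 5.84, 8.19, 7.49 and 10.8 CPM to 2.73, 1.86, 2.79, 2.6 and 3.77 CPM (−1.53 ± 0.21), and *YAP1*, the Hippo effector, fell by 0.92. Summed, the 8 mesenchymal markers counted for this check lay between 1701 and 2398 CPM in controls and between 1462 and 2152 CPM at 24 h.

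Among neuronal genes, 7 of 29 in the neurite cytoskeleton list were higher (24.1%) and 2 lower (6.9%), where 10.5% and 11.0% of all genes were. *STMN4*, a stathmin of neurons, went from 9.67, 9.10, 8.29, 4.72 and 4.34 CPM to 31.5, 19.6, 18.9, 14.5 and 11.7 CPM (1.39 ± 0.25) and *MAPT*, which encodes tau, from 15, 21.2, 15.1, 23.1 and 16.9 CPM to 33.8, 41.3, 31.6, 41.8 and 34.9 CPM (1.0 ± 0.16). The lower pair were *STMN1*, the stathmin of dividing cells, from 702, 680.2, 754, 648 and 693 CPM to 329, 307, 340.1, 350 and 329 CPM (−1.08 ± 0.10), and the kinesin gene *KIF21B* (−1.90). Of 41 synapse and vesicle release genes 17 were higher (41.5%) and 0 lower (13 to 18 higher when 1 library was left out). *SYT5*, a calcium sensor of vesicles, went from 12.1, 11.8, 10.2, 11.2 and 7.88 CPM to 34.5, 35.5, 27.2, 31.1 and 28.1 CPM (1.54 ± 0.13), and *CADPS*, which primes dense-core vesicles, rose by 1.06. In each of these genes the treated and control libraries stood apart.

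Of 38 ion channel genes 14 were higher (36.8%, beside 10.5% of all genes) and 5 lower (13.2%, near the 11.0% of all genes). The potassium channel genes *KCNH6*, from 6.92, 7.21, 6.20, 8.54 and 6.24 CPM to 15, 18.3, 13.8, 15 and 14.6 CPM (1.11 ± 0.14), and *KCNN1* (1.03) rose. *KCNQ3* (−1.70), a subunit of the M-current that damps firing, *KCNJ3* (−1.92) and *KCNC1* (−0.93) fell. *KCNH3* was at −0.56, and its call was lost without control replicate 4 (−0.49) or treated replicate 3 (−0.50). In either case 3 channel genes were lower. Of 29 primary cilium genes 4 were higher (13.8%, near the 10.5% of all genes) and 0 lower. These were the BBSome genes *BBS12* (0.68), *BBS1* (0.68) and *BBS9* (0.53) and the transport gene *WDR19* (0.60).

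Surface receptors for growth and guidance cues changed in both directions, where 10.5% of all genes were higher and 11.0% lower. Of 20 receptor tyrosine kinase and neurotrophin receptor genes 3 were higher (15%) and 4 lower (20%). *RET*, the receptor of GDNF ligands, went from 672, 894, 794, 844 and 709 CPM to 1281, 1728, 1521, 1504 and 1321 CPM (0.90 ± 0.13), and *NGFR*, a receptor of neurotrophins, rose by 0.99. The 4 lower genes were *KIT*, from 1.44, 2.74, 2.19, 2.53 and 2.06 CPM to 0.356, 0.291, 0.178, 0.182 and 0.209 CPM (−3.16 ± 0.29), *FGFR2* (−2.66), *PDGFRA* (−0.96) and *FGFR3* (−0.72). *PDGFRA* was the most abundant of these, at 138, 199.5, 195, 157 and 168 CPM in controls and 58.2, 103, 118, 80.3 and 85.8 CPM at 24 h, without overlap. *ALK*, mutant in this line, was at 0.05. Of 34 axon guidance genes 7 were higher (20.6%) and 5 lower (14.7%). The plexin gene *PLXNB3* (1.02) and the semaphorin gene *SEMA6C* (0.98) rose, while the semaphorin genes *SEMA5A* (−2.43) and *SEMA6A* (−1.20), the neuropilin genes *NRP1* (−1.0) and *NRP2* (−0.73) and the ephrin gene *EFNA5* (−0.62) fell.

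Signalling response genes changed in small numbers, to be read beside the 10.5% of all genes called higher and 11.0% called lower. Of 30 immediate early and MAPK feedback genes 6 were higher (20%) and 2 lower (6.67%), with *NR4A3* and *ARC* (0.85) in front and *ETV1* (−0.87) and *IER5* (−0.56) the lower ones. *FOS* (−0.05) and *JUN* (0.16) were not called. Of 15 ID and BMP feedback genes *SMAD1* (−0.84), *BMP2* (−0.84) and *ID1* (−0.56), an inhibitor of neuronal bHLH factors, were lower and 0 higher. Of 18 interferon and antigen presentation genes 4 were higher, *IRF9* (0.90), *STAT2* (0.68), *HLA-C* (0.62) and *IRF7* (0.55), and *IFIT1* (−1.14) was lower. *IRF7* was lost without control replicate 4 or 5 or treated replicate 3 (0.45 to 0.50), and *HLA-C* without these or without control replicate 1 or treated replicate 2 (adjusted p 0.0619 to 0.0804, within 0.00107 to 0.0804 over all alternatives). The count was then 2 higher without control replicate 4 or 5 or treated replicate 3.

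For some of the genes named, chosen after their values were seen and no measure of all rises or falls, the level after 5 days is given beside that at 24 h. The 5 libraries of 5 d PB were compared with the same 5 controls, so the comparisons are not independent, and the controls were not kept for 5 days. *KLF2*, at 0.191 to 0.469 CPM in controls and 1.46 to 3.09 CPM at 24 h, was at 0.0560 to 0.338 CPM at 5 d (log2 fold change against control −0.85). *CDKN1A* was at 46.0 to 90.2 CPM at 5 d, a change of −0.94 ± 0.22 (adjusted p 0.00182), below all controls. *NGFR*, at 18.6 to 30.7 CPM at 24 h, was at 6.90 to 13.4 CPM at 5 d (−0.55 ± 0.18). At 5 d the levels of *KLF2*, *DBH* (0.12) and *ALDOC* (−0.19) overlapped the controls. *JAK3*, by contrast, was at 7.85 to 11.7 CPM at 5 d and *CHGA* at 2055 to 3222 CPM, which gave 2.68 ± 0.16 and 1.66 ± 0.19. Among the falls *E2F8* was at −3.59, *AURKB* at −3.19, *RRM2* at −3.21 and *MKI67* at −3.34 after 5 d. As a list, mitosis had a median of −2.78 at 24 h and −1.89 at 5 d, catecholamine and granin genes 0.73 and 0.40, and splicing factors −0.57 and −0.83.

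**Figure D5:**
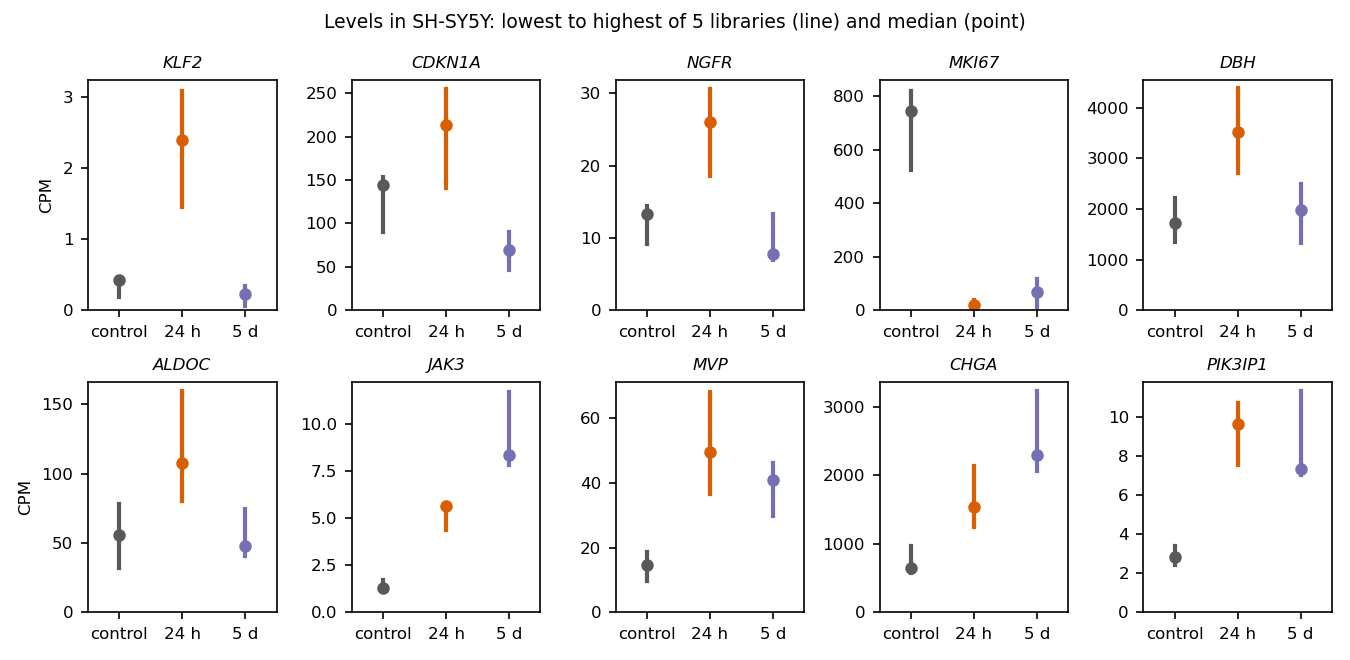
For 10 genes the line runs from the lowest to the highest of 5 SH-SY5Y libraries in CPM and the point is the median, for control, 24 h of PB and 5 d of PB. *KLF2*, *CDKN1A*, *NGFR*, *DBH* and *ALDOC* are highest at 24 h, *JAK3* and *CHGA* are highest at 5 d, and *MKI67* is highest in controls.

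The 24 h response was then set against the mean of the 24 h responses of SK-N-BE(2)C and IMR-32 in 1 fit of all 45 libraries, over 16282 genes. The difference was called for 252 genes (1.55%), 164 with a higher and 88 with a lower response in SH-SY5Y. With the replicate number as a block it was called for 344 and 192. Of the genes called at 24 h in SH-SY5Y and tested here, 134 of 3128 differed. In SH-SY5Y 557 genes were called higher that were called in neither other line, and for 28 of these the difference itself was called. For genes called lower in this way it was 29 of 382.

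Among the genes with the largest differences, *CDKN1A* exceeded the mean of the other lines by 1.76 ± 0.44 (adjusted p 0.0204). In SK-N-BE(2)C its level was 5.87 to 13.1 CPM in controls and 1.39 to 4.6 CPM at 24 h, and the difference from that line was 2.40 ± 0.55 (adjusted p 0.00829). In IMR-32 it went from 10.2 to 29.4 CPM to 9.58 to 16.4 CPM, and the difference there was 1.13 ± 0.50 (adjusted p 0.231), so the call rests on SK-N-BE(2)C. Without control replicate 5 the adjusted p of the mean difference was 0.0517, and over its alternatives it ran from 0.00137 to 0.0517. *NR4A3* differed by 1.93 ± 0.42 (adjusted p 0.00523), at 0.631 to 3.26 CPM across both other lines before and after PB. From IMR-32 alone its difference was not called (1.49 ± 0.50, adjusted p 0.0793). *SYT9*, a synaptotagmin, rose by 0.72 in SH-SY5Y (20.2, 19.9, 18.5, 15.3 and 17.1 CPM to 34.9, 35.3, 31.3, 22.2 and 27.5 CPM) and had values of −0.86 (SK-N-BE(2)C) and −0.89 (IMR-32), a difference of 1.62 ± 0.31 (adjusted p 0.00123). Its difference was called from each of the other lines. *ANGPTL4*, a lipase inhibitor, rose from 8.27, 7.05, 8.13, 5.58 and 7.46 CPM to 21.2, 15.4, 21.2, 19.2 and 21.5 CPM in SH-SY5Y (1.42 ± 0.13) and was at 0.07 in SK-N-BE(2)C. Its difference (1.74 ± 0.48, adjusted p 0.0366) was lost without control replicate 4 or 5 or treated replicate 1 or 3 (adjusted p 0.0515 to 0.0598, and 0.00969 to 0.0598 over all alternatives). In IMR-32 *ANGPTL4* and *SLC35D2* never exceeded 0.251 CPM, so the IMR-32 side of their differences rests on few reads. *SLC35D2*, a nucleotide sugar transporter, rose by 1.37 in SH-SY5Y and by 2.11 in SK-N-BE(2)C. From SK-N-BE(2)C alone its difference was called the other way (−0.72 ± 0.15, adjusted p 0.00350), so the difference from the mean rests on IMR-32. *MCUB*, a subunit of the mitochondrial calcium channel, fell in SH-SY5Y (23.1, 24.9, 20.6, 21.5 and 23.4 CPM to 7.95, 8.39, 6.41, 6.38 and 5.92 CPM, −1.71 ± 0.13), by less than the mean of the other lines, where it was at most 2.21 CPM in any control.

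Deeper falls in SH-SY5Y than in the other lines were led by *KIT* (−3.42 ± 0.79, adjusted p 0.00946). *KIT* is a receptor of stem cell factor. It was near 0 in SK-N-BE(2)C (at most 0.0936 CPM in controls), and against IMR-32 alone, where it lay at 84.4 to 126 CPM and then 49.1 to 97.5 CPM, the difference was −2.68 ± 0.39 (adjusted p 1.82e-05). *PIF1*, a DNA helicase, went from 30.7, 17.2, 26.2, 25 and 22.5 CPM to 1.96, 1.22, 1.01, 2.14 and 1.94 CPM (−3.87 ± 0.26), beside −1.29 (SK-N-BE(2)C) and −2.0 (IMR-32), a difference of −2.20 ± 0.25 (adjusted p 2.46e-07). *SLITRK5*, a synaptic adhesion protein, went from 8.61, 8.99, 8.86, 8.49 and 7.14 CPM to 1.54, 2.21, 2.61, 1.14 and 1.41 CPM (−2.26 ± 0.20), beside −0.16 and −0.47, a difference of −1.92 ± 0.24 (adjusted p 1.05e-06). For *PIF1* and *SLITRK5* the difference was called from each line by itself. *SEZ6* (−1.92 ± 0.41), a neuronal surface protein, and *GUCY1A2* (−1.85 ± 0.48), a guanylate cyclase subunit, were called from IMR-32 and not from SK-N-BE(2)C alone. In SK-N-BE(2)C *GUCY1A2* was at most 0.181 CPM. *FOXN4* differed by −1.68 ± 0.43 (adjusted p 0.0218, 0.0543 without treated replicate 1, and 0.0054 to 0.0543 over its alternatives) and was not called from SK-N-BE(2)C alone (adjusted p 0.0764). *MYCN* differed by −1.0 ± 0.22 (adjusted p 0.00523). In the amplified lines, with control levels of 3325 to 4428 CPM (SK-N-BE(2)C) and 1296 to 1776 CPM (IMR-32), it was at 0.31 (not called) and rose by 0.57 in turn. In the cell cycle lists the difference was called for 1 of 60 mitosis genes, 2 of 50 replication genes, 2 of 41 repair genes, 1 of 16 S and M phase cyclins and CDKs, 1 of 10 E2F and DP factors, 1 of 9 genes of the MYB and MuvB list and 2 of 13 of the CDK4/6 and RB axis, beside 1.55% of all genes. With the replicate block it was called for 5 mitosis genes, *AURKB* among them, 4 replication genes, 4 repair genes and 3 of the CDK4/6 and RB axis. The mitosis gene called without the block was *PLK1*, with a deeper fall (−1.49 ± 0.41, adjusted p 0.0376). Its call was lost without control replicate 1, 3, 4 or 5 or treated replicate 1, 2 or 3 (adjusted p 0.0514 to 0.0936, and 0.000233 to 0.0936 over all alternatives). The replication genes *LIG1* (0.84 ± 0.17) and *RECQL4* (0.77 ± 0.14) had a shallower fall.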

How the data were processed

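RNA was measured in 45 libraries, 5 per group, of 3 neuroblastoma lines, and 10 of them enter the main comparison. Per the labels and methods, polyA-selected libraries were sequenced in pairs of reads, trimmed with Trim Galore 0.6.4, aligned to hg19 with STAR 2.6.1d (the version in the submitters' processing notes) and deposited by the authors as raw read counts per gene and library. The authors' tables of CPM and of their own DESeq2 (1.32.0) comparisons, which hold shrunken log2 fold changes and adjusted p-values, were not used.

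The counts were fitted with edgeR 4.0.16 (R 4.3.3) by quasi-likelihood over all 15 SH-SY5Y libraries, with TMM factors, filterByExpr (count minimum 10, total minimum 15, proportion 0.7) and 1 mean per group. The authors' calling limits (adjusted p under 0.05, log2 fold change beyond 0.5) were kept. Differences between lines came from 1 fit of the 45 libraries. Standard errors are the absolute log2 fold change over the square root of F. Levels are CPM of the library total. The fits were tested on simulated data with 200 changed genes. Alternatives were RLE factors, library size alone, other count filters, DESeq2 1.42.0, fewer libraries, other fold limits, each replicate left out and the replicate number as a block.

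Replicate numbers come from the titles. Same-numbered control and 24 h libraries deviated together (correlations of 0.249 to 0.333 in the 5 pairs, the highest of each library), so the numbers were taken to pair the samples. The main fits did not use this pairing, which entered only as the replicate block among the alternatives. Library totals were 18913702 to 23692289 in controls and 16853018 to 21961506 at 24 h. Replicate pairs differed by more than counting noise (chi-square per degree of freedom of 6.12 or more), so no library was counted as a repeat of another.

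The gene lists, the motifs and the rule for named genes were chosen with earlier results of these data known. Named were 9 genes of the pathway, the 12 largest rises and falls among called genes with at least 1 CPM on average and no overlap between groups, up to 2 called genes per list and direction under the same conditions (all, where 5 or fewer were called), and the 6 largest positive and negative line differences. Genes given as not called, *SKP2*, *LIG1* and *RECQL4*, and genes outside that rule were chosen after their values were seen. Some genes that the rule names, and 1 gene list, are not reported here. Of 29159 gene symbols 25637 matched the GRCh37 annotation. Promoters are RefSeq windows on GRCh38.p14, of which 5191 of 27305 genes have more than 1.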

Additional observations from a re-analysis of the deposited data

Results flagged for a closer look

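The values of each gene named were examined in each group for a single library far from the other 4 (gap over range above 0.71, Dixon's 95% limit), and 13 of 286 groups of values met this (4.55%), where chance gives about 1 in 20. Far above the others were *E2F8* in treated replicate 4 (0.683 CPM), *PSAT1* in control replicate 5 (122.5 CPM), *GUSB* in treated replicate 3 (45.56 CPM), *CADPS* in treated replicate 1 (5.993 CPM), *KCNH6* (18.34 CPM) and *BBS12* (9.782 CPM) in treated replicate 2, and *BBS9* in control replicate 2 (19.14 CPM). Far below them were *AURKB* in control replicate 2 (60.59 CPM), *DDIT4* in control replicate 1 (24.06 CPM), *SOX11* in treated replicate 1 (154.5 CPM), *BBC3* (27.91 CPM) and *BCL2* (42.62 CPM) in treated replicate 4, and *SLITRK5* in control replicate 5 (7.138 CPM).

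The 24 h response in SH-SY5Y differed by test from the mean response of SK-N-BE(2)C and IMR-32 for 23 of the genes given, 12 of which had been named for the size of that difference. The response was higher in SH-SY5Y for *NR4A3* (a difference of log2 fold changes of 1.929), *CDKN1A* (1.764), *ANGPTL4* (1.741), *SYT9* (1.621), *SLC35D2* (1.608), *MCUB* (1.533), *LIG1* (0.8377), *KCNH6* (0.8357) and *RECQL4* (0.7675). It was lower for *KIT* (−3.415), *PIF1* (−2.201), *SLITRK5* (−1.923), *SEZ6* (−1.922), *GUCY1A2* (−1.846), *FOXN4* (−1.682), *TMPO-AS1* (−1.647), *PLK1* (−1.491), *CDKN2A* (−1.227), *TP53INP1* (−1.172), *MYCN* (−0.9965), *SEMA6A* (−0.9405), *SNRPA* (−0.6203) and *SOX11* (−0.5751). *SLC35D2* was called lower than in SK-N-BE(2)C alone. From SK-N-BE(2)C alone *TMPO-AS1*, *PLK1*, *SNRPA*, *SOX11*, *KIT*, *SEMA6A*, *MCUB*, *SEZ6*, *GUCY1A2* and *FOXN4* were not called, and from IMR-32 alone *CDKN1A*, *NR4A3*, *TP53INP1* and *ANGPTL4* were not. When 1 library was left out, *SEMA6A* (adjusted p 0.049 by edgeR) lost its call whichever it was (adjusted p 0.0517 to 0.115, and 0.000576 to 0.115 over all alternatives). *TMPO-AS1* lost it without control replicate 5 or treated replicate 1, 2 or 3 (adjusted p 0.0552 to 0.0792, and 0.000435 to 0.0792 over all alternatives), *CDKN2A* without control replicate 3 or treated replicate 1 or 5 (0.0536 to 0.0722, and 0.0144 to 0.0722) and *KCNH6* without treated replicate 2 (0.0521, and 0.0014 to 0.0521).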

How the results depend on the processing

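Over the alternatives with the same call limits, 2931 to 3295 genes were called at 24 h and 2832 to 3109 of these were among the 3129 called here. Leaving out 1 library at a time gave 1346 to 1580 higher and 1539 to 1663 lower genes. With no fold limit 3840 genes were higher and 3314 lower, and with a limit of 1 it was 339 and 682. The line difference was called for 123 to 166 genes with a higher and 68 to 88 with a lower response in SH-SY5Y when 1 library was left out. With the replicate block these counts were 344 and 192, and with the 30 control and 24 h libraries alone 138 had a lower response. Beside these counts, the block brought in *MYCN* as called (−0.60, adjusted p 0.0421, in a range of 0.00573 to 0.166 over its alternatives) and changed no other log2 fold change call of a gene named. Of 64 list counts 59 were equal with it, and beside the MYC network (2 lower in place of 1) the glycolysis list had 3 higher in place of 2, the immediate early list 3 lower in place of 2, the adrenergic list 3 higher in place of 2 and the ion channel list 15 higher in place of 14. With no filter on low counts *VLDLR*, *SLC7A11*, *HLA-C* and *CDKN1A* were not called, and with RLE factors *VLDLR* was not. For the line difference of 145 genes given, the block kept all 23 calls and added 11: *KLF2*, *FER1L4*, *AURKB*, *ALDOC*, *WIPI1*, *IRF9*, *ETV1*, *SMAD1*, *FGFR2*, *NRP1* and *BBC3*. With the 30 libraries *SEMA6A* lost its call (adjusted p 0.0573). Of the log2 fold changes of named genes recomputed under the alternatives, 2357 kept direction and call, 58 lost the call, 13 gained it and 2 changed sign. Both of the last were of *CDK6*, never called, at −0.001 without control replicate 3 and −0.0629 without treated replicate 2, with 0.096 as the highest of these fits. The cause of the sign changes was not tested. List medians moved by less than the spread between replicates in 527 fits and by more in 17.

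With windows of 150 bases before the start, CHR was found in 12.6% of genes called lower, 2.82% called higher and 4.28% not called, and the E2F motif in 10.0% called lower and 3.17% not called. With any start listed for a gene, chosen after seeing the data, it was 22.4%, 8.81% and 12.5% for CHR and 14.3% and 5.93% for E2F. Shorter windows hold fewer and several windows more letters. Counting depth limited genes near 1 CPM, where 16.9 to 23.7 reads stand behind a value.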

Other observations

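Of the genes called, 1320 higher and 1422 lower ones were protein-coding, of 12647 tested, and 93 higher and 73 lower ones were long non-coding RNAs, of 780 tested. Genes called higher had a median genomic span of 21558 bases, genes called lower 39130 bases and genes not called 32703 bases.

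*TP53INP1*, a stress protein of autophagy, differed from SK-N-BE(2)C by −2.11 ± 0.21 (adjusted p 1.89e-08 by edgeR) and from IMR-32 by −0.23 ± 0.19 (adjusted p 0.599). *SOX11*, a neuronal transcription factor, differed from IMR-32 by −0.94 ± 0.14 (adjusted p 2.31e-05) and from SK-N-BE(2)C by −0.21 ± 0.14 (adjusted p 0.507). *STMN1* differed from IMR-32 by −0.94 ± 0.14 (adjusted p 2.50e-05) and from SK-N-BE(2)C by 0.03 ± 0.14 (adjusted p 0.982). *KCNH6*, a potassium channel gene, differed from each line, by 0.88 ± 0.24 (adjusted p 0.0333) and 0.79 ± 0.24 (adjusted p 0.0485), and in those lines it was at 0.26 and 0.36 and not called.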
